A study of Homo sapiens with 4 samples.

Results

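The imprinted DLK1-DIO3 region on human chromosome 14 holds one of the largest miRNA clusters of the genome. Its miRNAs were taken as the human matched array probes whose name carries 1 of 31 numbers assigned to the cluster, with any letter, arm or star suffix. All 31 numbers were on the array, which gave 42 probes of 455 human matched probes. LAPC-4, an established prostate cancer cell line that responds to androgen, was kept for 24 hours in androgen-free medium with 10% charcoal-stripped serum. The cells then received the synthetic androgen R1881 at 0 (untreated), 0.1, 1 or 10 nM, and 10 µg of total RNA per dose was labelled with Cy3 and hybridised to 1 custom CombiMatrix array. The 4 arrays, 1 per dose, therefore hold no replicate, and the duration of the exposure is not stated clearly in the sources used here. All values are spot intensities in arbitrary units, whose precision is limited by the number of arrays.

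The miRNAs of the DLK1-DIO3 region are made on the chromosome inherited from the mother, from long noncoding transcripts that include MEG3 and MEG8, and are known for high levels in the embryo, the placenta and the brain. A mature miRNA guides the silencing complex to messenger RNAs that pair with its seed, the bases near its 5′ end. Several miRNAs of the region lie opposite RTL1, a gene expressed from the paternal chromosome, and pair with its transcript in full.

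All 42 probes could be matched by name to a mature sequence in the RefSeq table (GRCh38.p14). They came from 35 miRNA genes, all on the plus strand, since miR-329 and miR-376a each have 2 loci, and spanned 197 kb at chr14:100869075-101065981. In 25 cases the array used an older name with no arm, which was assigned to the arm that carried that name, and the sequences of the probes themselves were not used here. The 10 members with the highest mean intensity are shown first, because the measurements turn on them, in order along the chromosome, written 5′ to 3′ with the seed (bases 2 to 8) in capitals.
miR-432: uCUUGGAGuaggucauugggugg
miR-432*: cUGGAUGGcuccuccaugucu
miR-136: aCUCCAUUuguuuugaugaugga
miR-299-5p: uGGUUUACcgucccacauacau
miR-494: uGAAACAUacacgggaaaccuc
miR-381: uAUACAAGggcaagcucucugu
miR-487b: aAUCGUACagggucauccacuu
miR-539: gGAGAAAUuauccuuggugugu
miR-134: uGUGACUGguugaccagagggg
miR-485-3p: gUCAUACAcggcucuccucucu

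None of these 10 shared a seed with another of them. Among all 42 members, seeds were shared by miR-154* with miR-487a and by miR-376a with miR-376b. These 2 pairs are shown because they are the members with a common seed.
miR-154*: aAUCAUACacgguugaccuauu
miR-487a: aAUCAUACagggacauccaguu
miR-376a: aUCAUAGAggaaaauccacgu
miR-376b: aUCAUAGAggaaaauccauguu

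The miR-376a and miR-376b sequences had 20 of 21 aligned bases in common, and miR-487a and miR-154* had 15 of 22. miR-487a and miR-487b, whose seeds differ, had 19 of 22 in common. None of miR-376a, miR-376b, miR-154*, miR-487a or miR-487b exceeded the detection limit on any array.

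Most of the cluster was not measurable in LAPC-4 cells. A probe was called detected on an array if it was brighter there than 95% of the probes carrying 2 mismatches, a limit of 117.6 untreated, 135.5 at 0.1 nM, 138 at 1 nM and 143.5 at 10 nM. By this limit 4 of 42 members (9.52%) were detected on at least 1 array, against 132 of 413 human probes outside the cluster (32.0%). The share over all 455 human probes was 29.9%. On all 4 arrays, 2 of 42 members (4.76%) were detected, against 104 of 413 other human probes (25.2%), and 23.3% of all human probes. Members above the limit numbered 4 untreated, 2 at 0.1 nM, 3 at 1 nM and 2 at 10 nM, where 129, 119, 114 and 117 of all 455 human probes were. The detected members were miR-494, miR-485-3p, miR-432 and miR-136, and 38 members were never detected. For the 38, an intensity near the mismatch probes was not detectable above background and is not a measure of absence.

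**Figure D1:**
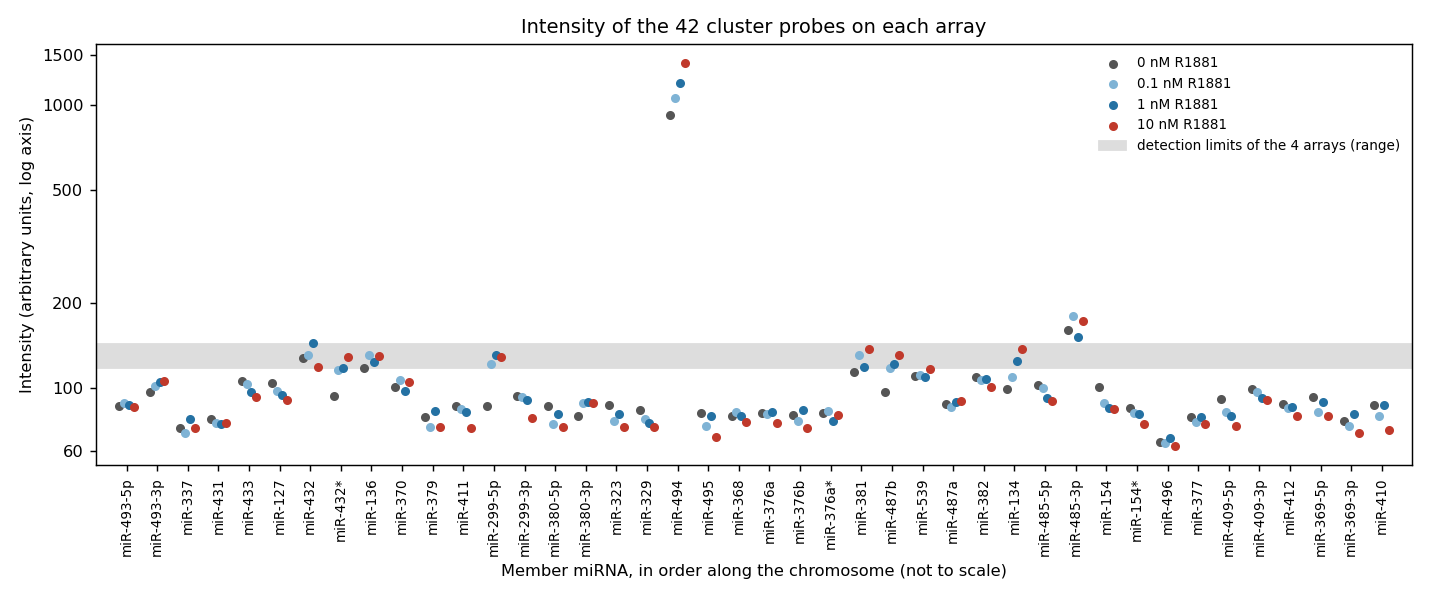
Intensity (log axis) of the 42 cluster probes on each of the 4 arrays, with members in order along chromosome 14 and a grey band over the range of the detection limits of the 4 arrays. miR-494 lies between 921 and 1403.25 on the 4 arrays, and every other member lies at or below 180.25.

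miR-494 was by far the brightest member. Its probe read 921 untreated, 1060.5 at 0.1 nM, 1197.75 at 1 nM and 1403.25 at 10 nM. These 4 values were above the limit on every array, and the untreated array had the lowest of them. The matching probe with 2 mismatches read 70, 68, 72 and 65.5 at the same doses, and the matched probe was 13.2, 15.6, 16.6 and 21.4 times as bright. The mismatch probe lay below the mismatch median of every array (84.5, 82, 87 and 76), so these ratios are larger than the folds over that median. A mouse-named miR-494 probe read 898, 1108, 1136 and 1433 over the same dose order. Among the 455 human probes, miR-494 ranked 10th untreated, 8th at 0.1 nM, 10th at 1 nM and 9th at 10 nM, a rank of probe brightness and not of miRNA abundance.

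The mature miR-494 maps to chr14:101029681-101029702 on the plus strand, inside a predicted protein-coding gene, LOC124903407, in the RefSeq table. The same predicted gene spans 10 of the 42 member probes. The nearest upstream miRNA gene, MIR329-2, lies 2.45 kb away, and the miR-329 probe read between 73 and 84. The nearest downstream miRNA gene with a human probe, MIR495, lies 4.04 kb away, and the miR-495 probe read between 67 and 81.75. Both neighbours were below the limit on all 4 arrays.

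miR-485-3p, at chr14:101055464-101055485, was the other member above the limit on all 4 arrays. Its probe read 160.5 untreated, 180.25 at 0.1 nM, 151.25 at 1 nM and 173 at 10 nM. There was no order with dose, and the treated values lay on both sides of the untreated one. Its mismatch probe was almost as bright, at 128, 175, 159 and 171.5 in the same dose order. The matched probe was brighter on 3 of 4 arrays, with a mean ratio of 1.06 ± 0.13 (SD over 4 arrays of different doses). A mouse-named miR-485-3p probe read 132.5, 180.5, 179.5 and 190.25, and the other arm of the human hairpin, miR-485-5p, was never detected.

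A run of 9 bases is printed here in capitals because the brightest members by mean intensity, miR-494 and miR-485-3p, both contain it, as does miR-154*. It was noticed after the intensities were known.
miR-494: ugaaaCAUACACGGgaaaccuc
miR-485-3p: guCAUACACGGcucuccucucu
miR-154*: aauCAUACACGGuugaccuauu

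Searched on the sense strand of 2370 human mature miRNAs in the RefSeq table, CAUACACGG occurred in 3 (0.127%), which are these 3 members. The run was taken as the longest stretch common to miR-494 and miR-485-3p, so its presence in both was fixed by that choice. miR-485-3p shares a longer run, of 10 bases, with miR-154*. In miR-494 the run of 9 begins at base 6, in miR-485-3p at base 3 and in miR-154* at base 4. The miR-154* probe read 84.75, 81.75, 80.75 and 74.5 from untreated to 10 nM, below the limit on every array. Whether the miR-485-3p probe or its mismatch probe binds miR-494 was not tested.

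The 6 members inside RTL1 are miR-431, miR-433, miR-127, miR-432, miR-432* and miR-136. miR-127 is known to target BCL6, a transcriptional repressor, and several miRNAs of this group direct cleavage of the Rtl1 transcript in the mouse. miR-432 and miR-136 were the detected ones, and neither was above the limit on every array. miR-432, at chr14:100884496-100884518, read 128 untreated, 130.5 at 0.1 nM, 144.25 at 1 nM and 118.25 at 10 nM, and exceeded the limit untreated and at 1 nM. Its mismatch probe was dimmer on all 4 arrays, at 109, 100, 94 and 88. miR-136, at chr14:100884716-100884738, read 118, 130.75, 123.75 and 130 and exceeded the limit on the untreated array alone, where its margin was under 1 unit. Its mismatch probe read 76, 68, 72 and 75.5, which made the matched probe 1.73 ± 0.15 times as bright (mean ± SD over 4 arrays of different doses). Among the members, this was the second highest ratio after miR-494. The other 4 members inside RTL1 read between 74.5 and 128.5 and were never detected.

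The limit fell close to several members. Just inside it were miR-136 untreated, at 118 against 117.6, and miR-432 at 1 nM, at 144.25 against 138. Just outside were miR-381 untreated, at 114.25 against 117.6, and miR-136 at 0.1 nM, at 130.75 against 135.5. With the limit at the 90th percentile of the mismatch probes 13 of 42 members were detected (43.1% of all human probes). At the 99th percentile 2 members were, miR-494 and miR-485-3p (19.8% of all human probes), and the same 2 were with the virus and worm probes as the limit (26.2%). In the authors' deposited table, which leaves blank the values under a fixed level on each array, 2 of 42 members have a value on at least 1 array (24.6% of all human probes) and 1 of 42 on all 4 arrays (16.3% of all human probes). In the authors' deposited table these are miR-494 on all 4 arrays, at 836.5, 978.5, 1110.75 and 1327.25 above the mismatch median, and miR-485-3p at 0.1 and 10 nM, at 98.25 and 97.

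Along the chromosome, the undetected members formed long stretches on both sides of a gap of 111 kb between MIR370 and MIR379, which separates 10 upstream probes from 32 downstream ones. Outside RTL1, the 4 upstream probes of miR-493-5p, miR-493-3p, miR-337 and miR-370 read between 69.5 and 106.5. The 8 probes from miR-379 to miR-329 read between 72 and 130.75, with miR-299-5p the brightest. The 4 probes of the miR-376 group, which includes miR-368 (now named miR-376c) and whose primary transcript is edited in human brain, read between 72.5 and 84, a narrow band at the level of the mismatch probes.

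The 3 probes inside MIR381HG, a noncoding host gene, read between 97.25 and 137.5 and did not pass the limit. They were brighter than the miR-376 group, but undetected probes elsewhere reached similar values (miR-299-5p 130.75, miR-432* 128.5, miR-134 137.5). miR-381 read 114.25, 130.5, 118.5 and 137.5, miR-487b read 97.25, 117.75, 121.5 and 131.25, and miR-539 read 110.25, 111.5, 109.5 and 116.5, each from untreated to 10 nM. In the stretch from miR-487a to miR-154, all 6 probes other than miR-485-3p stayed between 74.5 and 137.5. This stretch includes miR-134, which represses Limk1 at dendritic spines of rat neurons. The 8 distal probes from miR-496 to miR-410 read between 62.5 and 99.5. They include miR-369-3p, which binds the AU-rich element of the TNF messenger RNA.

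Where both arms of a hairpin were on the array, the arms could be set side by side as detection calls. There were 9 such hairpins, and in 7 of them neither arm was detected. In 0 of them were both arms detected, and in the other hairpins, MIR432 and MIR485, 1 arm was. The share over all human hairpins with both arms on the array is not given here. With 38 of the 42 members undetected, these counts are not a result about arms. GC content of the mature sequences ran from 23.8% to 68.2% with a median of 45.5%. Across the 42 members, GC content and mean intensity had a Spearman correlation of 0.407, and across the 38 undetected members 0.483. These correlations are across probes of the same 4 arrays, which share background, and are given as descriptions.

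Mismatch probes were measured on every array for 39 members. The matched probe was the brighter on all 4 arrays for 24 of these 39 members (61.5%), against 247 of 393 other human probes (62.8%), and 62.7% over all probes compared, so the members' share was close to the background. A ratio of at least 2 on all 4 arrays was met by 1 member (2.56%), miR-494, against 67 of 393 other human probes (17.0%), and 15.7% of all. A ratio of at least 1.5 was met by 2 members, miR-494 and miR-136, against 91 of 393 other human probes, and 21.5% of all. Without miR-494, the members' mean ratios ran from 0.911 to 1.73 with a median of 1.08. The matched probe was the dimmer on all 4 arrays for 3 members, miR-154, miR-380-5p and miR-337, named because the count is small.

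**Figure D2:**
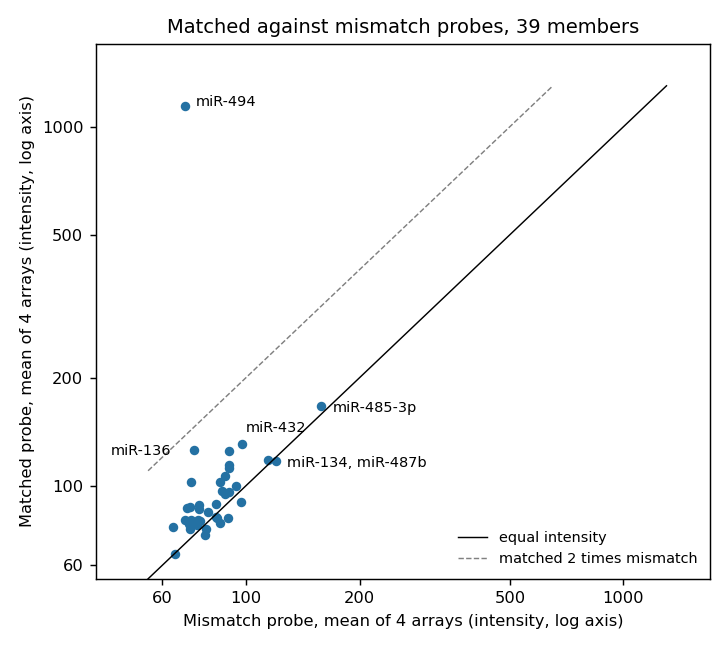
Mean intensity over the 4 arrays (both axes logarithmic) of the matched probe against its mismatch probe for 39 members, with the line of equal intensity and the line of a 2-fold excess. miR-494 lies above both lines, while the other members have mean ratios between 0.911 and 1.73.

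The ratios between doses depended on how the arrays were scaled. The detected human probes as a whole were brighter on the treated arrays after background correction and before scaling, with a median log2 ratio over untreated of 0.13 at 0.1 nM, 0.17 at 1 nM and 0.38 at 10 nM. On the same scale 78.7%, 69.1% and 89.7% of the detected probes were above untreated at these doses. There miR-494 had log2 ratios over untreated of 0.21, 0.39 and 0.63, higher than those of 68.4%, 80.9% and 73.5% of the detected probes. After quantile normalisation, which gives every array the same distribution, the log2 ratios of miR-494 were 0.02, 0.00 and 0.00. Quantile normalisation assigned the miR-494 probe the same ranked value, 10.12 on the log2 scale, on 3 of the 4 arrays.

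On the normalised scale the log2 ratios of the 4 detected members lay between -0.33, for miR-432 at 10 nM, and 0.02. The log2 ratios of miR-485-3p over untreated were 0.02, -0.30 and -0.17 from 0.1 to 10 nM. miR-136 was below the limit on all treated arrays, and the bound on its ratio came out under 1, so no fold is given. miR-432 had a normalised log2 ratio of 0.01 at 1 nM. At 0.1 and 10 nM it was below the limit, with log2 ratios as measured of -0.14 and -0.33, and of 0.07 and -0.02 without scaling. The bound at both doses, 1.04-fold lower than untreated on the quantile-normalised scale, does not take the limit as the dim level. It is therefore not a minimum. The deposited intensity of miR-432 at 0.1 nM, 130.5, was above the untreated 128, and the limit there was 135.5, so a lower level is not shown. With values under the limit taken as measured, the median log2 ratio of the 4 detected members was 0.01, -0.05 and -0.13 at 0.1, 1 and 10 nM. The choice of the 4 is not independent of these medians. miR-136 was among them through the untreated array alone, which had the lowest limit and is the denominator of every ratio. With 1 array per dose these ratios have no replicate check.

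**Figure D3:**
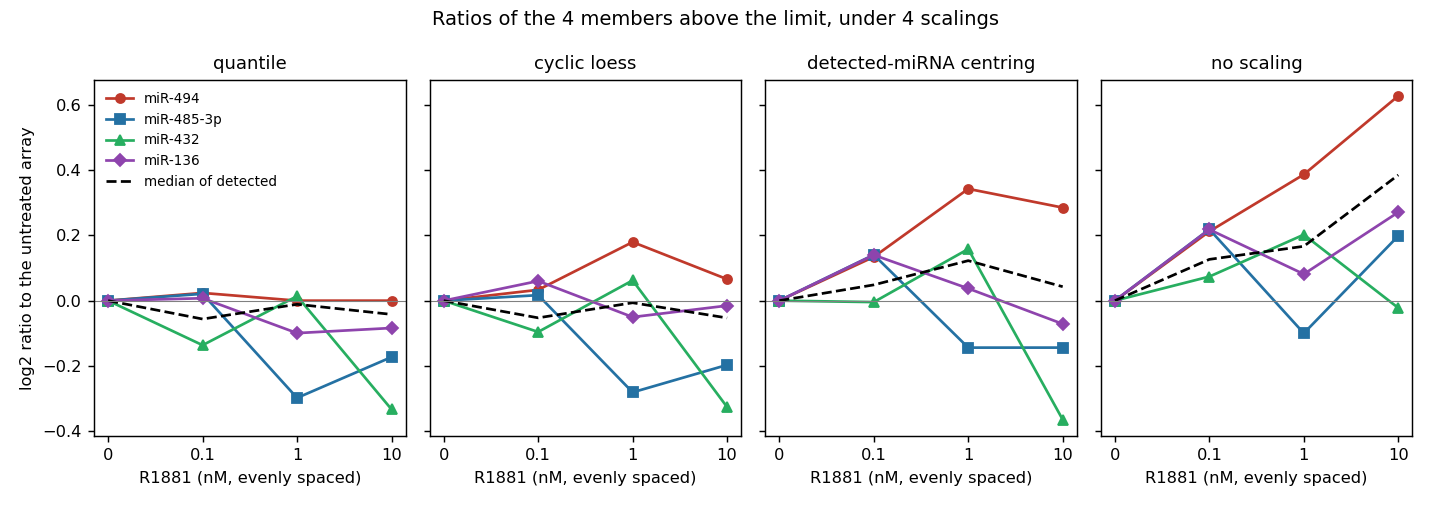
Log2 ratio over the untreated array by R1881 dose (evenly spaced) for the 4 detected members under quantile normalisation, cyclic loess, centring on the detected probes and no scaling, values below the detection limit included, with the median of all detected human probes as a dashed line. miR-494 reaches 0.63 at 10 nM without scaling and 0.00 after quantile normalisation.

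A straight line over dose rank, fitted with limma to all detected human probes together, leaves 2 residual degrees of freedom, so its p-values rest on how far 4 unreplicated arrays depart from a line, which may be technical. None of the 4 detected members passed an adjusted p of 0.05 on the quantile-normalised scale, and none had an unadjusted p under 0.05. Over all detected probes 0 passed (0%) and 36 had an unadjusted p under 0.05 (26.5%). The slope of miR-494 was -0.0024 ± 0.028 log2 units per dose step (SE, limma with Benjamini-Hochberg adjustment, adjusted p = 0.957). Its normalised value was the same on 3 of the 4 arrays, so a slope near 0 was fixed by its rank. The SE rests on a variance that limma moderates over all detected probes. The smallest adjusted p of a member in the limma fit was 0.275, for miR-485-3p with a slope of -0.08 ± 0.05. Without scaling, the slope of miR-494 was 0.21 ± 0.05 (limma, adjusted p = 0.00799), on a scale where 52 detected probes (38.2%) passed as rising and 1 (0.735%) as falling. Under median scaling it was 0.20 ± 0.05 (limma, adjusted p = 0.0147), where 48 (35.3%) passed as rising and 1 (0.735%) as falling. Under cyclic loess and under centring on the detected probes no member passed, with limma adjusted p for miR-494 of 0.548 and 0.121. Under cyclic loess 7.35% of the detected probes passed as rising and 9.56% as falling, and under centring 5.15% and 4.41%.

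The direction of the detected members also turned on the scale. On the quantile-normalised scale 0 of 4 were above untreated at all 3 doses (26.5% of detected probes) and 0 of 4 were below at all 3 (42.6%). miR-494 missed the first count through values equal to untreated at 1 and 10 nM. Its log2 ratios from 0.1 to 10 nM were 0.03, 0.18 and 0.07 under cyclic loess (median of detected probes -0.05, -0.01 and -0.05). Under centring on the detected probes they were 0.13, 0.34 and 0.29 (median 0.05, 0.12 and 0.04). The other detected members were not above untreated at all 3 doses under either scaling. In the deposited intensities 2 of 4, miR-494 and miR-136, were above untreated at all 3 doses, where 63.2% of the detected human probes were, and 0 of 4 were below, where 11% were.

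Among the 38 undetected members, 7 (18.4%) read above untreated at all 3 doses, against 13.8% of all undetected human probes, and 18 (47.4%) read below, against 40.4%. Their ratios of 10 nM over untreated ran from 0.806 to 1.49, with a median of 0.923. Neither share was far from the background. The 7 were miR-134, miR-299-5p, miR-380-3p, miR-381, miR-432*, miR-487b and miR-493-3p. Of the members' 39 mismatch probes, 6 read above untreated at all 3 doses, those of miR-134, miR-323, miR-381, miR-410, miR-485-3p and miR-487b, and over all 576 mismatch probes the share was 16.1%. An excess over untreated at every dose was also present in probes with 2 mismatches.

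miR-134 was among both the 7 members and the 6 mismatch probes. Its matched probe read 99.25, 109.75, 125 and 137.5 from untreated to 10 nM, and its mismatch probe 100 untreated, 111.5 at 0.1 nM, 118.5 at 1 nM and 1.27 times its untreated value at 10 nM. With no detection filter, when limma was fitted to all 455 human probes, miR-134 was the member that passed, with a slope of 0.16 ± 0.03 (adjusted p = 0.0157), where 7 probes (1.54%) passed as rising and 11 (2.42%) as falling. Its intensity was under the limit on every array, and the matched probe exceeded its mismatch probe on 2 of 4 arrays. miR-487b read 97.25, 117.75, 121.5 and 131.25, with a mismatch probe at 94, 127.5, 123.5 and 136.5, brighter than the matched probe on 3 arrays.

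miR-299-5p read 86.5 untreated, 121.5 at 0.1 nM, 130.75 at 1 nM and 128.5 at 10 nM, all below the limit. Its mismatch probe read 74 untreated, 90 at 1 nM and 92.5 at 10 nM, and was listed at 0 at 0.1 nM, so both probes were brighter at 1 and 10 nM than untreated. miR-432* read 93.5, 116.25, 118 and 128.5 over the doses, while its mismatch probe stayed between 88.5 and 94.5. For both members every treated value lay above the untreated one, and none reached the limit of its array.

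**Figure D4:**
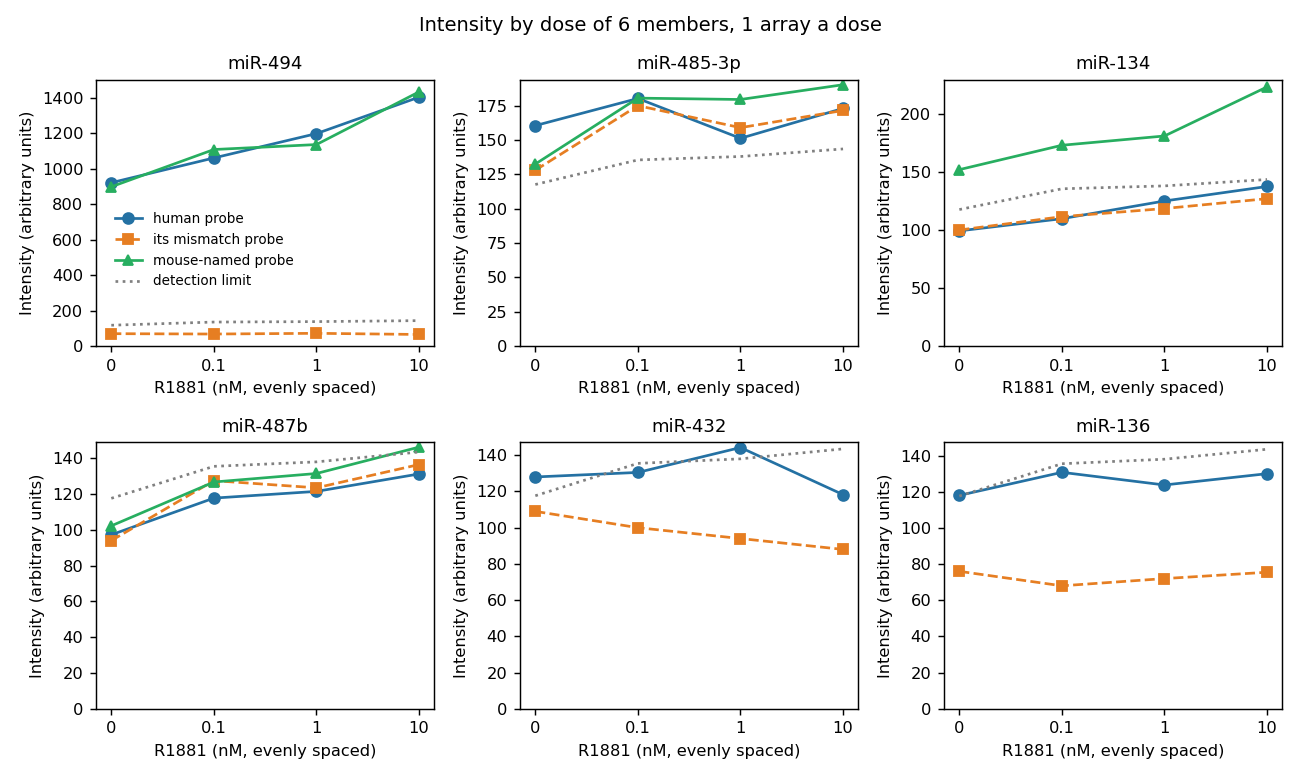
Intensity against R1881 dose (evenly spaced) for miR-494, miR-485-3p, miR-134, miR-487b, miR-432 and miR-136, with the matched probe, its mismatch probe, a mouse-named probe where there is one, and the detection limit. The miR-494 probes reach 1403.25 (human) and 1433 (mouse-named) at 10 nM while the mismatch probe stays between 65.5 and 72, and for miR-134 the matched and mismatch probes climb together.

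Rodent-named probes that carry the same numbers gave a further view of the members. Of 30 such probes, 5 were detected on at least 1 array (16.7%) and 4 on all 4 arrays (13.3%). Over all 455 human probes the shares were 29.9% and 23.3%, and the share over all rodent-named probes is not given here. The 4 were those named miR-494, miR-485-3p, miR-134 and miR-431 of the mouse. The mouse-named miR-134 probe read 152, 173, 181 and 223.25, but the probe with 2 mismatches to it was the brighter on all 4, at 168, 199, 204 and 251.5. The mouse-named miR-431 probe read 180.25, 245, 293.75 and 331.5, above the limit throughout, whereas the human miR-431 probe read 77.75, 75.5, 74.5 and 75.25. The mouse-named miR-487b probe read 102.25, 126.75, 131.5 and 146.25 and was above the limit at 10 nM. Human and mouse-named probes were both detected on every array for miR-494 and miR-485-3p, and for miR-431 and miR-134 the mouse-named probe alone was. No mismatch reading was available for the mouse-named miR-494, miR-485-3p, miR-431 and miR-487b probes, so their specificity could not be checked that way. The rodent probe sequences were not used here.

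Other sets on the same arrays were read at the same limit. Of 5 further miRNAs of the same chromosome 14 cluster (miR-453, miR-544, miR-654, miR-655 and miR-656), 0 were detected. Of 47 probes of the chromosome 19 cluster, an imprinted group expressed in placenta, 0 were detected. Of 9 epithelial miRNAs, 6 were above the limit (miR-141, miR-200b, miR-200c, miR-182, miR-183 and miR-375), and miR-200a, miR-429 and miR-203 were not. The share over all human probes was 29.9%. The summed epithelial intensities were 2643.5 to 3152.25 in treated cells and 2651.25 in untreated cells. This list is of epithelial miRNAs and does not check the prostate or cancer part of the label. Of markers of other cell types, 0 of 6 blood, 0 of 5 placental, 0 of 1 basal epithelial and 0 of 1 liver miRNAs were detected, against 1 of 5 fibroblast and smooth muscle (miR-214), 1 of 4 muscle (miR-206) and 2 of 5 neural ones (miR-128a and miR-128b). The summed neural intensities were 674.75 to 705 in treated cells and 625.75 in untreated cells. The summed fibroblast and smooth muscle intensities were 555 to 624.25 in treated cells and 510.25 in untreated cells. The blood sums were lower in treated cells, at 454 to 476.5 against 484, and so were the placental sums, at 396.75 to 430.5 against 448.5. All these sums include undetected probes and have no background removed, so they do not measure the level of a cell type. The part of other cell types in the miR-494 values was not tested.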

How the data were processed

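Per the file headers, the deposited values of each array are mean signal intensities, 1 per probe name, with no background removed, and were used as raw intensity. Per the labels, the data are relative to the untreated sample, but the values show no such scaling. Each value of the authors' deposited table was found, by setting it against the arrays, to be the intensity minus the array's median mismatch-probe intensity, with values blank under 2 times that median. It served as an additional detection limit, chosen after seeing the data. The scanner, the image software and any filter on spots are not given here.

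The dose in each title set the group of the 4 samples, 1 array each, and nothing says whether they came from separate cultures. Array medians were 90, 88, 91.5 and 83 over all probes, and mismatch medians 84.5, 82, 87 and 76, from untreated to 10 nM. Intensities were background-corrected with normexp (offset 50), quantile-normalised and taken to log2 with limma 3.58.1 in R 4.3.3. A line over dose rank was fitted to all human probes above the limit (the 95th percentile of mismatch probes) on at least 1 array, with Benjamini-Hochberg adjustment at 0.05. The fit was first run on simulated data with independent noise, no array-wide shifts and no normalisation, so that run does not test the scaling. A bound is given where a probe was below the limit on 1 array of a ratio, using as the dim level the probe's measured value or that of the dimmest detected human probe, whichever is higher. Intensities of different probes do not rank abundance.

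The text gives all detected members, the 10 members with the highest mean intensity and those sharing their seeds. Other members appear as counts and ranges, or by name where a count was small, where they share a seed or a near-identical sequence, and where named blocks or probe pairs needed it, which was decided after their values were seen. The members and lists were chosen with earlier results of these data known. Mature sequences and neighbouring genes are from RefSeq (GRCh38.p14), matched by miRNA name. Alternatives changed the scaling, background, detection limit, dose coding and arrays used.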

Additional observations from a re-analysis of the deposited data

How the results depend on the processing

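The count of members with a dose trend was 0 in the main setting and stayed at 0 under cyclic loess, centring on detected probes, no background correction, detection on all 4 arrays, both other codings of dose, and leaving out each array in turn (0 to 0). It was 1 with no scaling and 1 with median scaling (miR-494), and 1 with no detection filter (miR-134). Detected members numbered 4 of 42, with the share detected among all 455 human probes, 29.9%, as background. The count was 13 at the 90th percentile (background 43.1%), 2 at the 99th percentile (19.8%) and 2 with virus and worm probes as the limit (26.2%). It was 2 when all 4 arrays were required (23.3%), and 2 in the authors' deposited table (24.6%). The median log2 ratio of the detected members over untreated changed at 0.1 nM to 0.22 with no scaling, 0.19 with median scaling and 0.14 with centring on detected probes, against 0.01 in the main setting. At 1 nM it was 0.14, 0.11 and 0.10 under the same 3 alternatives, against -0.05. At 10 nM it was 0.23 with no scaling, 0.21 with median scaling and -0.0155 over all 42 members with no detection filter, against -0.13. The count of matched probes brighter than their mismatch probes was 24 (62.7% of all human probes), or 2 when at least a 1.5-fold excess was required (21.5%). Slopes over dose rank turned from negative to positive for miR-494 (0.21 with no scaling, 0.20 with median scaling, 0.0344 with cyclic loess, 0.11 with centring), miR-136 (0.0676 with no scaling, 0.0594 with median scaling), miR-485-3p (0.0276 with no scaling, 0.0195 with median scaling) and miR-432 (0.00616 with no scaling). Of these slopes, those of miR-494 with no scaling and with median scaling passed the adjusted threshold. The cause of the difference between scalings was not tested. No paired analysis was possible because each dose has 1 array. Most members sat under the detection limit, where a change in specific signal and a change in background cannot be told apart.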
